A study of Drosophila melanogaster with 3 samples.

Results

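The genes described here make, esterify, store and release lipids in Drosophila melanogaster. They are ACC, FASN1 and Desat1 for fatty acids, mdy and CG8112 for neutral lipid esters, Lsd-1, Lsd-2 and bmm at the lipid droplet, and SREBP as a regulator. The 9 genes were chosen by name, with ratios of the same comparison already known, above all that of the sterol acyltransferase gene CG8112, so their values below are a description and support nothing. Of the 9, 8 had a probe with that single gene symbol and a value on all arrays, out of 9757 named genes, and together they had 10 probes. FASN1, the main fatty acid synthase gene, had no such probe and was not analysed here.

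The mutant tissue was midgut of EcR mutants with the alleles EcRM554fs and EcRV559fs, which per the labels lack the function of every isoform of the ecdysone receptor. These larvae carried the heat shock inducible transgene hs-EcR-B230.1 and were collected at stage 2a, the point of arrest late in the last larval instar. The other channel of each of the 3 arrays held 1 common reference, a mixture of midgut RNA from wild-type Canton S animals of several stages. The 3 mutant samples were independent per the labels and are called replicates 3, 4 and 6 after their titles. A log2 ratio above 0 is read as higher in the mutant. That direction is likely rather than stated, since the labels put the mutant in the Cy5 channel and the reference in the Cy3 channel but the values do not say which was divided by which. Turned round, every sign below would change. The reference was not matched to stage 2a and all 3 arrays had the same dye orientation, so genotype, stage, heat shock and dye cannot be told apart in any ratio.

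The larval midgut absorbs dietary fat, rebuilds it and passes it on in lipoproteins, and its cells hold lipid droplets. Acetyl-CoA is carboxylated by ACC, built into fatty acids by FASN1 and desaturated by Desat1. Acyl chains are then joined to glycerol, with triacylglycerol formed in the last step by mdy, or joined to sterols by enzymes of the CG8112 type. Perilipins coat the droplet, and the lipase bmm opens the stored triacylglycerol. SREBP is a membrane-bound transcription factor that drives lipid synthesis genes once proteases release it, and insects obtain their sterols from food.

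The arrays held a value for 18991, 14097 and 14069 probes in replicates 3, 4 and 6. After centring, 13027 features had a value on all of them. The small number of arrays sets the precision, and a feature's SD over the arrays had a median of 0.104 log2 units. Of all features, 37.0% passed the limma test against 0 at an adjusted p under 0.05, with 13.4% higher and 23.6% lower in the mutant. The EcR transcript itself had log2 ratios of 1.72, 0.57 and 2.19 in replicates 3, 4 and 6, and since its probe may also detect transgene RNA or mutant transcripts, the genotype cannot be checked by it. The heat shock gene Hsp68 stood at 0.99, -0.84 and 1.84, so replicate 4 was the lowest array for both. Both genes were named because they differed between arrays, so nothing is read from this shared order.

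Among the 8 measured genes the ratios spanned 3.51 log2 units. CG8112, mdy, bmm and Lsd-1 were below 0 on all 3 arrays, Desat1 and SREBP were above 0 on all 3, and ACC and Lsd-2 lay on both sides of 0. That is the same sign on all arrays for 6 of 8 genes, where 67.2% of all features had it. The limma threshold was passed by 6 of the 8, with 2 higher and 4 lower. Since the genes were chosen on this comparison, nothing is read from these counts beside the 37.0%, 13.4% and 23.6% of all features. Without replicate 3, without replicate 4 and on receptor centring (described below) the higher count was 1, since SREBP did not pass. Without replicate 3 the lower count was 5, since Lsd-2 passed. The median log2 ratio of the 8 genes was -0.30, against 0.0080 for all features.

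**Figure D1:**
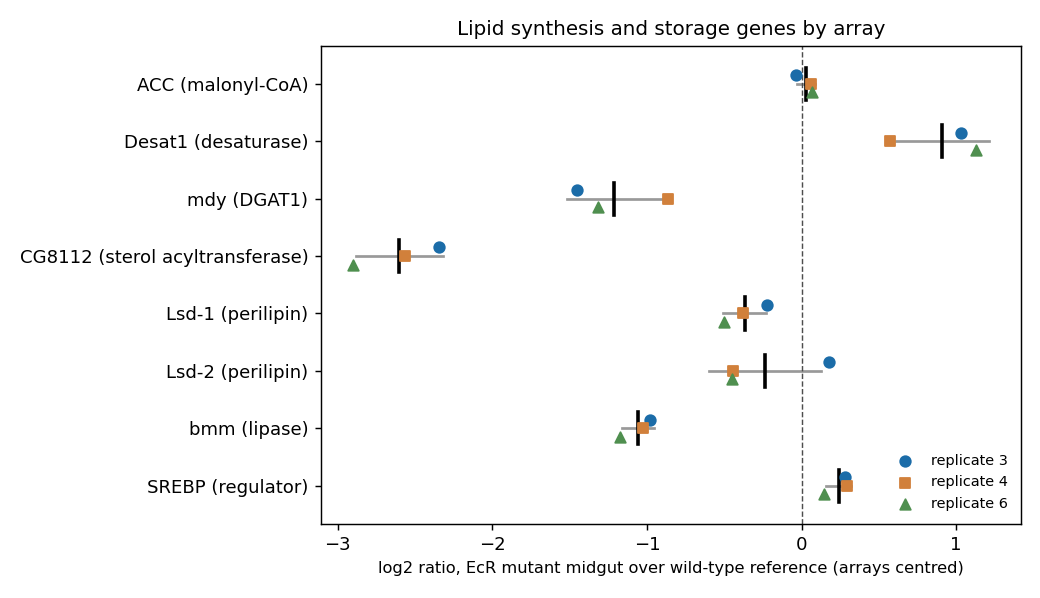
Log2 ratio of EcR mutant midgut over the wild-type reference (x axis, arrays centred on their median) for the 8 measured genes (rows, ordered by step). Points are the 3 arrays, the black bar is the mean and the grey line the mean ± SD. CG8112 is farthest from 0, at -2.34 to -2.90, Desat1 is at 0.57 to 1.13, and the points of ACC and Lsd-2 lie on both sides of 0.

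Fatty acid synthesis was represented by ACC, the enzyme that makes malonyl-CoA. ACC had log2 ratios of -0.035, 0.058 and 0.064 in replicates 3, 4 and 6, a mean of 0.029 ± 0.056 (SD, n = 3). These lie close to 0 on every array, and the mean became -0.071 when the arrays were centred on chemosensory receptor probes and 0.090 on the values as deposited. Desat1, which places the first double bond in saturated fatty acids, had log2 ratios of 1.03, 0.57 and 1.13. All 3 were above 0, with replicate 4 the lowest, and the mean of 0.91 ± 0.30 (SD, n = 3) corresponds to 1.88-fold higher in the mutant. A share of 97.6% of all features had a lower mean than Desat1, and 54.3% had a lower mean than ACC.

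The esterification enzymes had the lowest mean ratios of the set. CG8112, listed with the synonym ACAT in the gene table and a relative of the mammalian enzymes that esterify cholesterol, had log2 ratios of -2.34, -2.56 and -2.90 in replicates 3, 4 and 6. It was the lowest of the 8 genes on every array, and only 8 of the 13027 features had a lower mean. Its mean of -2.60 ± 0.28 (SD, n = 3) corresponds to a level 6.08-fold lower in the mutant. The gene mdy (midway) encodes the diacylglycerol acyltransferase DGAT1, which completes triacylglycerol and is needed in the fly germline. It had log2 ratios of -1.45, -0.87 and -1.32, all below 0, with replicate 4 the closest to 0. Its mean of -1.21 ± 0.31 (SD, n = 3) corresponds to 2.32-fold lower in the mutant, and 2.63% of features had a lower mean. CG8112 was below mdy on 3 of 3 arrays, by 1.39 ± 0.44 log2 units (SD of the difference, n = 3).

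The 3 named genes with log2 ratios closest to those of CG8112 were Spn27A, a serpin, Zip89B, a zinc transporter, and Ctr1B, a copper transporter. Closeness was the root mean square difference over the 3 arrays, compared for 9756 genes. It came to 0.135 for Spn27A, 0.167 for Zip89B and 0.182 for Ctr1B in log2 units. The measure picks genes with ratios of similar size on each array, and shared regulation was not tested. Spn27A stood at -2.47, -2.38 and -2.98, Zip89B at -2.21, -2.33 and -2.80, and Ctr1B at -2.46, -2.56 and -2.61 in replicates 3, 4 and 6.

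The droplet proteins differed less from the reference. Lsd-1 encodes perilipin 1, which sits on droplets and governs access of lipases, and its log2 ratios were -0.22, -0.38 and -0.50 in replicates 3, 4 and 6. All were below 0, and the mean of -0.37 ± 0.14 (SD, n = 3) corresponds to 1.29-fold lower in the mutant. Its 3 probes gave means of -0.52, -0.31 and -0.27, so the sign was shared between probes while the size varied. Lsd-2 encodes perilipin 2, which protects stored fat, and had log2 ratios of 0.18, -0.44 and -0.45, with a mean of -0.24 ± 0.36 (SD, n = 3). Replicate 3 stood above 0 and the others below, so that Lsd-2 had the largest spread between arrays of the 8 genes. Leaving out replicate 3 gave a mean of -0.45, leaving out replicate 4 gave -0.14 and leaving out replicate 6 gave -0.13. The 2 perilipins differed by 0.13 ± 0.25 log2 units (SD, n = 3), Lsd-1 being lower on 2 of 3 arrays, which is within the spread.

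The lipase gene bmm (brummer), the fly homologue of mammalian ATGL, was the steadiest of the large values. It had log2 ratios of -0.98, -1.02 and -1.17 in replicates 3, 4 and 6, a mean of -1.06 ± 0.10 (SD, n = 3). This corresponds to 2.08-fold lower in the mutant, and 3.54% of features had a lower mean. A mean difference of 2-fold or more was reached by 3 of the 8 genes (CG8112, mdy and bmm), against 6.1% of all features. The genes were chosen on this comparison, so nothing is read from that count. SREBP had log2 ratios of 0.28, 0.29 and 0.15, all above 0, with a mean of 0.24 ± 0.08 (SD, n = 3) or 1.18-fold higher in the mutant. Its mean stayed above 0 under all 10 alternatives run. It was 0.14 on receptor centring, 0.22 without replicate 3 and 0.21 without replicate 4, and did not pass the limma threshold in these 3 settings.

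**Figure D2:**
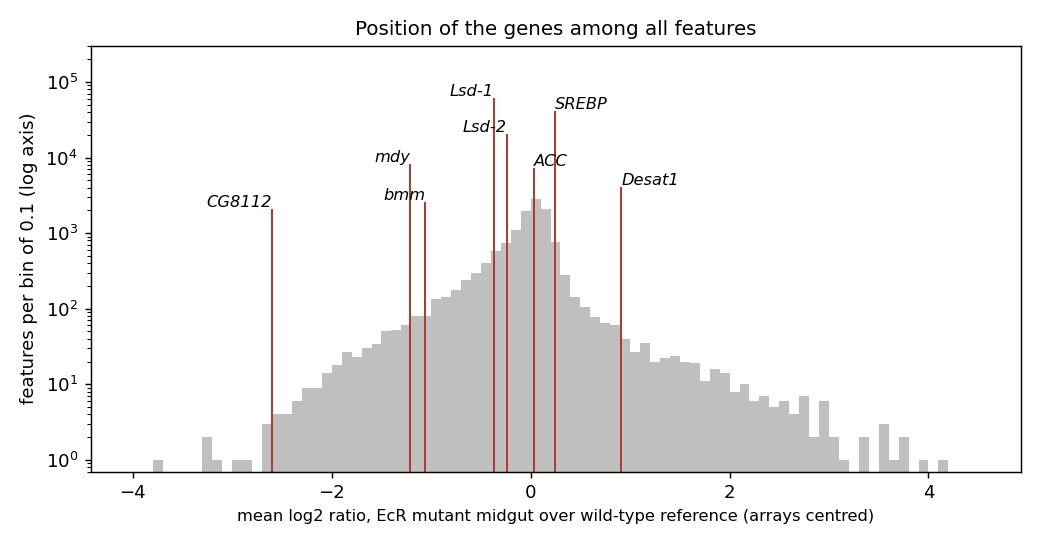
Number of features (y axis, log scale) by mean log2 ratio of EcR mutant midgut over the wild-type reference (x axis, bins of 0.1), with red lines at the means of the 8 genes. CG8112 lies in the far lower tail at -2.60, ACC at 0.029 lies at the peak, and Desat1 at 0.91 lies in the upper tail. The height of a red line has no meaning.

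The rest of the pathway was read from genes outside the set, in 6 lists with 94 genes, of which 81 were tested. Of these 81 genes, 16 rose, 34 fell and 31 did not pass the limma test, so that 61.7% passed. Of all features, which include 3270 unnamed probes, 37.0% passed, 13.4% higher and 23.6% lower. The lists were chosen with earlier results of these data known, so nothing is read from their counts beside these shares. Without kar, an eye colour gene described below, 16 of 80 rose and 33 fell. The median log2 ratio of the 81 genes was -0.074, and -0.068 without kar, close to the 0.0080 of all features. On the values as deposited 21 rose and 30 fell, and on receptor centring, which moved each array by 0.0884 to 0.107, 14 rose and 38 fell.

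In the fatty acid synthesis list 4 of 14 genes rose, 4 fell and 6 missed the threshold, where 13.4% of all features were higher and 23.6% lower. AcCoAS, which makes acetyl-CoA from acetate, had log2 ratios of 1.67, 1.51 and 1.81 in replicates 3, 4 and 6. All were above 0, and the mean of 1.67 ± 0.15 (SD, n = 3; limma adjusted p = 1.14e-05) corresponds to 3.17-fold higher in the mutant. ATPCL, the citrate lyase that makes cytosolic acetyl-CoA, rose to a mean of 1.06 ± 0.20 (limma adjusted p = 1.05e-04), with 1.02, 1.27 and 0.88. The acyl-CoA synthetase gene bgm (bubblegum) rose to 1.13 ± 0.13 (limma adjusted p = 3.52e-05). The list's median of 0.045 became -0.055 on receptor centring. With each probe on its own it was -0.022, where a gene with 2 probes was given by its lower probe, so such a gene could only move down. The gene kar, which fell to -0.78 ± 0.08, is karmoisin, an eye colour gene that entered the list through a similar symbol. Without kar 4 of 13 rose and 3 fell, and spidey, the gene of the ketoacyl-CoA reductase with that symbol as a synonym, stood at -0.043 ± 0.16, short of the threshold. Hacd1 and Hacd2, for dehydratases of fatty acid elongation and named after their values were seen, fell, Hacd1 to -0.45 ± 0.05 and Hacd2 to -0.59 ± 0.04. Sc2, the enoyl-CoA reductase gene of elongation, stood at -0.15 and the elongase gene Elo68beta at 0.15, and neither passed over all arrays. Sc2 passed on receptor centring (-0.25), and Elo68beta stood at 0.050 without replicate 3 and 0.046 on receptor centring.

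Of 20 genes for enzymes that build glycerolipids 3 rose, 10 fell and 7 missed the threshold, where 13.4% of all features were higher and 23.6% lower. Their median was -0.19, and it was -0.29 on receptor centring. With each probe on its own it was -0.32, where a gene with 2 probes was given by its lower probe, so such a gene could only move down. The acyltransferase gene mino, for the first acylation of glycerol-3-phosphate, had log2 ratios of -1.54, -1.54 and -1.80 in replicates 3, 4 and 6. All were far below 0, and its mean was -1.63 ± 0.15 (SD, n = 3; limma adjusted p = 1.19e-05), or 3.1-fold lower in the mutant. Gpat4, a gene for the same step that was named after its values were seen, was above 0 on all arrays at 0.46, 0.42 and 0.45 (mean 0.44 ± 0.02; limma adjusted p = 0.00104). That value averages 2 probes, with means of 0.27 (limma adjusted p = 0.0136 with each probe on its own) and 0.62. The difference between mino and Gpat4 was -2.07 ± 0.15 log2 units (SD, n = 3), in the same direction on 3 of 3 arrays, and rests on the average of those probes. With 3 arrays an exact two-sided sign-flip test of such a difference cannot go below p = 0.25, so none is given.

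The genes of the second acylation also lay on both sides of 0. Agpat2 had log2 ratios of -2.29, -2.12 and -1.48 in replicates 3, 4 and 6 (mean -1.96 ± 0.43, n = 3; limma adjusted p = 7.7e-05), which is 3.89-fold lower in the mutant. Agpat3 fell to -0.93 ± 0.15 and Agpat4 rose to 1.05 ± 0.37, with 1.19, 0.63 and 1.32 on the arrays, while Agpat1 at 0.14 passed on the values as deposited (0.20) but not as centred, and was 0.037 on receptor centring. Agpat2 was below Agpat4 on 3 of 3 arrays by 3.01 ± 0.41 log2 units. Lpin (lipin), which turns phosphatidic acid into diacylglycerol, fell to -0.82 ± 0.21. At the last step Dgat2, whose enzyme catalyses the reaction of mdy, fell to -0.41 ± 0.08, and mdy lay below it on 3 of 3 arrays by 0.80 ± 0.26 log2 units. Its tandem relatives CG1941 at 0.13 and CG1946 at -0.055 did not pass. CG1941 was at 0.034 on receptor centring and 0.083 without replicate 6, and the mean of CG1946 was above 0 without replicate 3 and as deposited. Agpat3, Agpat4, Lpin, Dgat2, CG1941 and CG1946 were named after their values were seen.

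**Figure D3:**
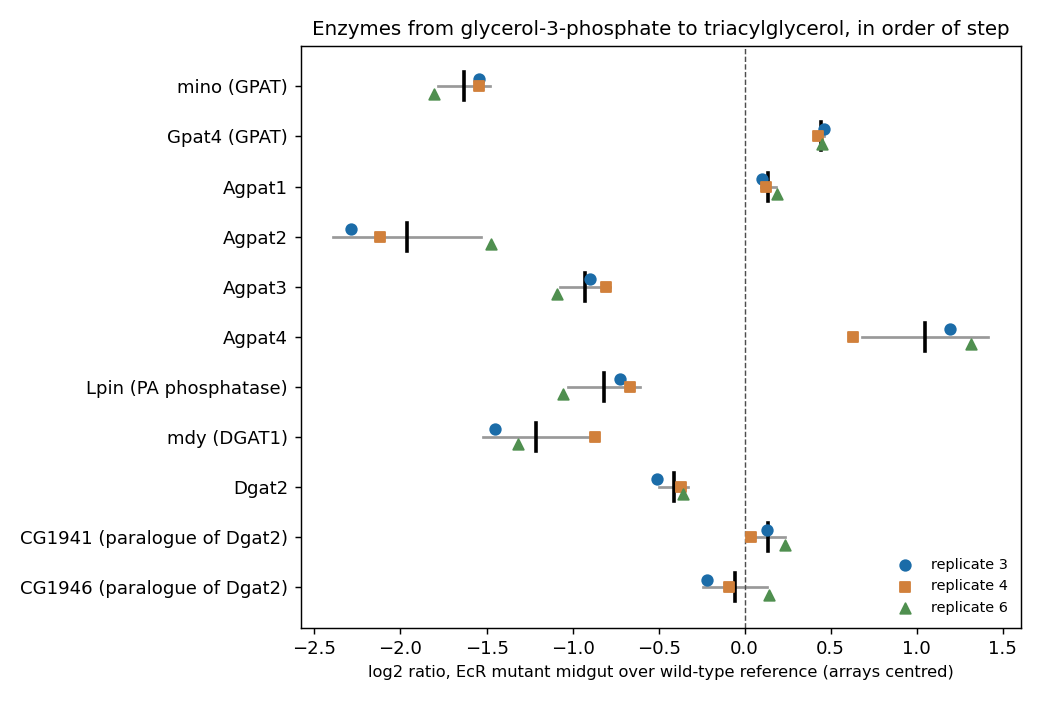
Log2 ratio of EcR mutant midgut over the wild-type reference (x axis) for the enzymes from glycerol-3-phosphate to triacylglycerol (rows, in order of step), with points for the 3 arrays, a black bar at the mean and a grey line for the mean ± SD. At the first step mino lies at -1.54 to -1.80 and Gpat4 at 0.42 to 0.46, and at the second Agpat2 lies at -1.48 to -2.29 and Agpat4 at 0.63 to 1.32.

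The list also held the branch to phospholipids. The ethanolamine kinase gene eas (easily shocked) fell to -1.49 ± 0.18 (SD, n = 3; limma adjusted p = 2.13e-05), with -1.36, -1.42 and -1.70 on replicates 3, 4 and 6. The phosphotransferase gene bbc, for the last step of phosphatidylethanolamine and phosphatidylcholine synthesis, fell to -1.40 ± 0.15 (limma adjusted p = 2.09e-05). Pcyt1, the gene for the rate-limiting step of phosphatidylcholine synthesis, named after its values were seen, rose to 0.33 ± 0.07. Gpdh1, which makes glycerol-3-phosphate, stood at 0.18 ± 0.21 and did not pass over all arrays, but did without replicate 4 (0.31), and was 0.11 without replicate 3 and 0.085 on receptor centring.

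Other droplet and lipolysis genes also ran both ways, with a median of -0.21 over 9 genes, of which 3 rose, 5 fell and 1 did not pass. As deposited 4 rose and 4 fell, and on receptor centring 2 rose and 5 fell. Without replicate 3, 2 rose and 4 fell, and without replicate 4, or without replicate 6, 3 rose and 4 fell. The shares of all features were 13.4% higher and 23.6% lower. Rab18, a small GTPase found on droplets, fell to -1.22 ± 0.15 (SD, n = 3; limma adjusted p = 3.33e-05), with -1.06, -1.24 and -1.36 in replicates 3, 4 and 6. The gene puml (pummelig), the fly relative of the ATGL co-activator CGI-58, fell to -0.96 ± 0.16 (limma adjusted p = 1.07e-04), close to the -1.06 of bmm. Rab32, a GTPase of lysosome-related organelles, fell to -0.92 ± 0.15. The lipase gene Lip4 rose to 0.72 ± 0.45, with 1.24 in replicate 3 and 0.45 and 0.47 in replicates 4 and 6, and was 0.46 without replicate 3. The bmm paralogue dob at 0.18 ± 0.08 did not pass (limma adjusted p = 0.065), but did on the values as deposited (0.24), and was 0.076 on receptor centring. Jabba, a droplet protein, fell to -0.64 ± 0.27 and sturkopf, another droplet protein, rose to 0.64 ± 0.26, both named after their values were seen.

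Of 14 genes for regulators of lipid metabolism 4 rose, 2 fell and 8 missed the threshold, with a median of -0.045. That is 42.9% passing, where 37.0% of all features passed, 13.4% higher and 23.6% lower. The site-2 protease gene S2P, whose product releases SREBP, rose to 0.33 ± 0.09, with 0.42, 0.32 and 0.25 in replicates 3, 4 and 6 (limma adjusted p = 0.00615; 0.0705 without replicate 3). SCAP, the escort of SREBP, named after its values were seen, rose to 0.23 ± 0.11 (limma adjusted p = 0.0332). This call was lost without replicate 3 (limma adjusted p = 0.122), without replicate 4 (0.107) and on receptor centring (0.182). The site-1 protease gene S1P was at -0.17 ± 0.04 (limma adjusted p = 0.0621) and passed only with quantile normalization (-0.18) and on receptor centring (-0.27). The largest values were Hr96, a nuclear receptor of sterol and triacylglycerol balance, at 0.75 ± 0.14 and ERR, a receptor of carbohydrate and lipid metabolism, at -0.70 ± 0.20. The transcription factor gene sug (sugarbabe) rose to 0.48 ± 0.09, and foxo at -0.16 ± 0.18 did not pass over all arrays, but did on receptor centring (-0.26), and was -0.055 without replicate 4. Without replicate 3, 2 regulators rose and 1 fell, and without replicate 4, or without replicate 6, 1 fell. On receptor centring 3 rose and 4 fell, and with quantile normalization 4 rose and 3 fell. The median was 0.0021 without replicate 3, -0.074 without replicate 4, -0.010 without replicate 6, -0.068 with each probe on its own, -0.14 on receptor centring and 0.016 as deposited, where 5 rose and 1 fell.

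Fatty acid oxidation genes were lower where they passed, apart from 1. Of 13 genes 1 rose, 6 fell and 6 missed the threshold, and their median was -0.20. Among all features, too, fewer were higher (13.4%) than lower (23.6%). The mitochondrial enzyme genes scu at -0.62 ± 0.12 and Mtpbeta at -0.57 ± 0.12 fell, as did whd (withered), the carnitine palmitoyltransferase gene, at -0.42 ± 0.27. Its log2 ratios were -0.19, -0.36 and -0.72 in replicates 3, 4 and 6, and its mean without replicate 6 was -0.28. The peroxisomal oxidase gene Acox57D-p rose to 0.49 ± 0.20, and its relative Acox57D-d at 0.22 ± 0.24 and Echs1 at -0.20 ± 0.12 did not pass over all arrays. Acox57D-d passed as deposited (0.29) and without replicate 4 (0.35), and was 0.11 without replicate 6. Echs1 passed on receptor centring (-0.30), with quantile normalization (-0.24), with equal spread (-0.22) and without replicate 6 (-0.27). Without replicate 3, 3 genes of this list fell. Without replicate 4, 3 rose, and as deposited 3 rose and 4 fell.

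Lipid carriers had the lowest list median, -0.36, with 1 of 11 genes higher, 7 lower and 3 not passing. The shares of all features were 13.4% higher and 23.6% lower. The fatty acid binding protein gene fabp had log2 ratios of -1.64, -1.83 and -2.43 in replicates 3, 4 and 6. All were far below 0, and the mean of -1.97 ± 0.41 (SD, n = 3; limma adjusted p = 6.26e-05) corresponds to 3.91-fold lower in the mutant. The lipocalin gene GLaz fell to -1.52 ± 0.29 and the fatty acid transport gene Fatp1 to -0.98 ± 0.18. The lipophorin receptor gene LpR1 was above 0 at 1.51, 0.75 and 1.46 (mean 1.24 ± 0.43; limma adjusted p = 6.1e-04). The lipoprotein genes apolpp, at -0.22, 0.25 and -0.26, and Apoltp, at 0.13, 0.037 and 0.093, did not pass, although apolpp did without replicate 4 (-0.24).

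**Figure D4:**
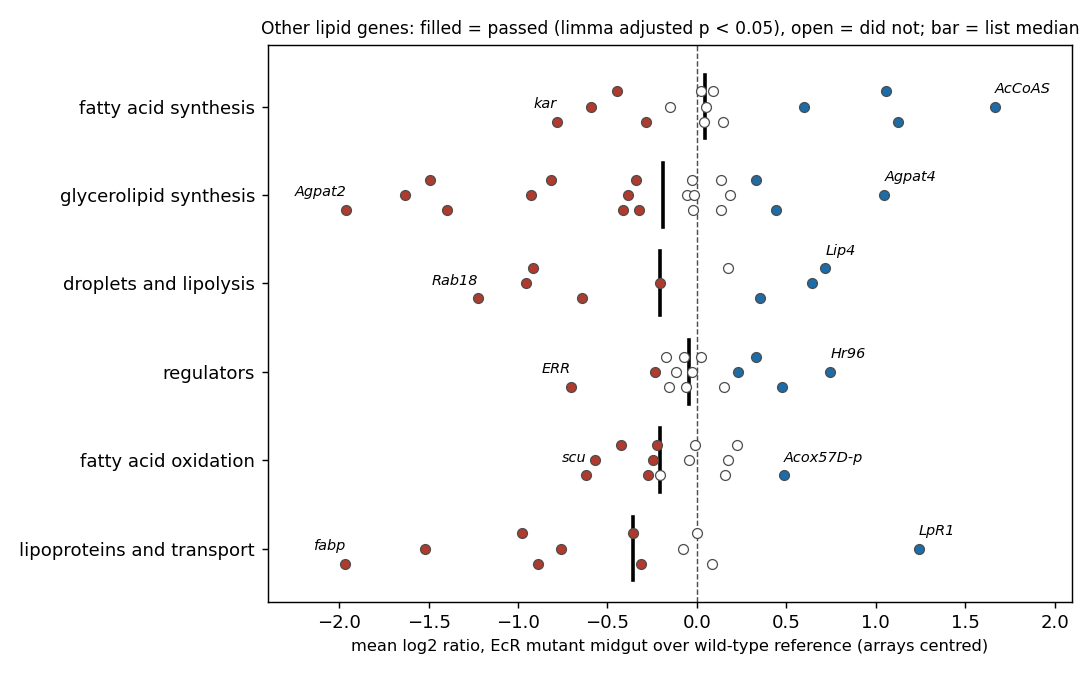
Mean log2 ratio of EcR mutant midgut over the wild-type reference (x axis) for the 81 lipid genes outside the set, by list (rows), with the vertical scatter inside a row only for legibility. Filled points passed the limma test (blue higher, red lower), open points did not, bars are list medians from -0.36 to 0.045, and the lowest and highest gene of each list are named. The gene kar in the top row is an eye colour gene.

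Several of these genes are also strongly used by the fat body, the main fat store of the larva. The fat body markers Fbp1 at -1.34, -0.73 and -0.95, Lsp2 at -1.28, -0.61 and -0.87 and Fbp2 at -0.56, -0.11 and -0.70 in replicates 3, 4 and 6 were lower in the mutant, which is 3 of 3 tested of 6 listed, and Fbp2 lost its call without replicate 3. Replicate 4 was closest to 0 for these 3 markers. It also had the smallest SD over all features, 0.453, against 0.509 in replicate 3 and 0.570 in replicate 6. Nothing is therefore read from which array was closest to 0. Of the 8 genes, mdy and Desat1 were closest to 0 on replicate 4, SREBP on replicate 6 and the other 5 on replicate 3. Of 6 muscle markers 2 rose, namely bt (bent) at 0.58 ± 0.16 and up (upheld) at 0.40 ± 0.18, of which upheld did not pass without replicate 3. Of 6 hemocyte markers 1 rose, Hml at 0.23 ± 0.12, and 1 fell, Pxn at -0.28 ± 0.18. Of 2 salivary gland markers 1 rose, Sgs1 at 0.26 ± 0.05, and of 2 Malpighian tubule markers 1 rose, Irk1 at 0.64 ± 0.30. The calls of these markers under the alternatives are not given. Of 7 midgut markers 3 rose and 1 fell, among them betaTry, a trypsin, at 1.17 ± 0.25, Vha100-4 of acid-secreting copper cells at 0.90 ± 0.16, Dh31 of endocrine cells at 0.30 ± 0.23 and esg of progenitors at -0.39 ± 0.14. The call of Dh31 was lost without replicate 4 or 6 and on receptor centring, and that of esg without replicate 3. Of all features 13.4% were higher and 23.6% lower, and the marker lists held only 2 to 7 tested genes each. Only markers that passed are given with values, and those that missed the threshold are not named. The part of any other tissue in the lipid ratios was not tested. Ratios hold no levels, so the tissue could not be checked by the presence of its markers, and in whole tissue fewer cells of a type and less RNA per cell cannot be told apart.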

How the data were processed

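The deposited values were log2 ratios of the 2 channels, 1 per probe and array, for 20000 probes. Per the labels' protocols, in vitro transcription amplified the total RNA, the mutant was read at 635 nm and the reference at 532 nm. For image analysis, background correction and spot filtering, the methods were not given in the sources. The log2 scale was settled from the values: with base 2 and an offset fitted to each array, 100% of those below 1.5 were ratios in steps of 0.001 (tolerance 0.02 of a step). The ratio's direction stays unknown, and mutant over reference is likely from the channel order. Deposited medians were 0.0475, 0.0483 and 0.0858, and each array was centred on its own. No intensities were used, so signal over background is unknown.

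Names came from the platform annotation, where 10828 probes had 1 symbol, 227 several and 8945 none. Gene IDs of 10824 were found in RefSeq's gene table (assembly Release 6 plus ISO1 MT), and 0 symbols changed. Probes of 1 gene were averaged, giving 13027 features with a value on all 3 arrays, 9757 named genes and 3270 unnamed probes. A two-sided moderated test of each mean against 0 was run in limma 3.58.1 (R 4.3.3; lmFit, eBayes), with Benjamini-Hochberg adjustment over all features at 0.05. The pooled reference is a single control sample, and the spread of the wild type is left out. The procedure was tested on simulated data. The remaining steps used Python 3.11.15 with pandas 2.3.3, numpy 2.4.6 and matplotlib 3.10.9.

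The members and lists were chosen with earlier results of these data known. Named were all members, up to 4 genes per lipid list that passed and up to 2 that did not, by largest absolute mean. Also named were the 3 genes nearest to CG8112, and EcR and Hsp68 as genes that differed between arrays. The rule did not cover spidey, the tissue markers or the genes marked as named after their values were seen. Each marker given with values had passed the limma test. Alternatives were the values as deposited, centring on 105 chemosensory receptor probes, equal spread, quantile normalization and robust eBayes. Others were probes taken singly, features with values on at least 2 arrays, and leaving out each replicate. With probes taken singly, a gene was given by its middle probe by mean, or by the lower one where it had 2.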

Additional observations from a re-analysis of the deposited data

How the results depend on the processing

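Of the 8 genes, 7 kept the sign of their mean under all 10 alternatives run, and ACC changed it on receptor centring. The count of all features called was 4824, and 2780 to 4613 when a replicate was left out, the lowest without replicate 3. The split of calls depended on the zero point, with 1744 higher and 3080 lower as reported, 3040 higher and 2730 lower as deposited, and 959 higher and 4196 lower on receptor centring. Among the other lipid genes, 14 to 21 were higher and 30 to 38 lower over the alternatives with all replicates, and 12 to 18 and 25 to 33 with a replicate left out. The median of the 8 genes ran from -0.44 to -0.22 over all alternatives. Values near 0 that turned were Apoltp (-0.013 on receptor centring), apolpp (from -0.24 without replicate 4, where it passed, to 0.016 without replicate 6) and CG1946 (0.0057 as deposited, and from -0.15 without replicate 6 to 0.028 without replicate 3). The cause of these shifts was not tested. No paired analysis was possible because only 1 group of samples was compared with a common reference. Small ratios such as those of SREBP and SCAP are limited by 3 arrays and by the choice of zero.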
